A study of Mus musculus with 12 samples.

Results

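The 60 genes described here lie together at the near end of mouse chromosome 7 and include the paired immunoglobulin-like receptor gene Pirb and the actin regulator gene Eps8l1. Members were the protein-coding genes listed in both deposited tables whose annotated start falls between 3000000 and 6000000 of chromosome 7 (GRCm38, GENCODE vM21), with symbols beginning Rpl, Nduf or Cox left out. They are 60 of 19868 genes listed in both tables, of which 14462 are protein-coding. The annotation places 87 protein-coding genes in the stretch, of which 63 were listed in both tables, 7 in 1 table only and 17 in neither, 11 of these being vomeronasal receptor genes. Ndufa3, Cox6b2 and Rpl28 were the 3 genes left out by symbol. The stretch was picked because of its genotype differences: it was selected on the log2 difference between Klf6-deleted and Lyz2cre libraries in both tables. Those differences are therefore given as a description, with no p.

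Macrophages were grown in culture from the bone marrow of Klf6fl/fl:Lyz2cre mice, called Klf6-deleted here, or of Lyz2cre mice. Klf6 encodes a zinc-finger transcription factor, and both genotypes carry Cre recombinase under the gene for lysozyme 2, which is active in myeloid cells. The number of Cre copies per genotype is not stated. Total RNA was sequenced from 12 libraries, 3 in each of 4 groups: Klf6-deleted untreated, Lyz2cre untreated, Klf6-deleted kept for 6 h with 10 ng/ml of the inflammatory cytokine TNF, and Lyz2cre kept likewise. The labels do not state whether the 3 libraries of a group are from different mice or cultures, so any p-value rests on a spread that may be technical. Mouse strain and sex are not stated.

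Libraries held 16.9 to 23.4 M reads, and values are normalized counts, that is read counts divided by 1 factor per library, set separately for the untreated and the TNF table. The targeted gene Klf6, on chromosome 13, had 7101 ± 269 normalized counts in Klf6-deleted untreated libraries and 10118 ± 174 in Lyz2cre untreated libraries, and 4161 ± 43.4 in Klf6-deleted TNF libraries against 7447 ± 255 in Lyz2cre TNF libraries (SD, n = 3 each). Reads over the whole gene cannot show which exons they came from. Lyz2, the gene that carries Cre, averaged 244 ± 39.3 in Klf6-deleted and 856 ± 26.5 in Lyz2cre untreated libraries, and 931 ± 108 against 1656 ± 45.8 with TNF (SD, n = 3 each), and it shares sequence with Lyz1. The 8 macrophage markers summed to 7096 to 7524 CPM (reads scaled to a common library total) in Klf6-deleted untreated libraries and 12460 to 12530 in Lyz2cre untreated libraries, and the 8 stromal markers to 2219 to 2366 CPM against 91.0 to 110. With TNF the macrophage sums were 9609 to 9661 CPM in Klf6-deleted and 10210 to 10350 in Lyz2cre libraries. The stromal sums with TNF were 150 to 170 against 20.9 to 31.9. Of the 8 macrophage markers, 1 was called higher and 7 lower untreated, and 4 higher and 4 lower with TNF. Of 6 stromal markers tested, 6 were called higher untreated and 5 with TNF. The 8 granulocyte markers summed to 293 to 320 CPM in Klf6-deleted untreated libraries and 343 to 371 in Lyz2cre untreated libraries, with 2 called higher and 4 lower of 6 tested, and with TNF to 8.51 to 11.5 against 10.4 to 11.1, where Ly6g and Cxcr2 were not listed. The 5 B cell markers summed to 5.44 to 8.34 CPM against 3.22 to 5.03 untreated and 2.19 to 2.56 against 0.203 to 0.671 with TNF. The 5 megakaryocyte markers summed to 167 to 236 CPM against 148 to 162 untreated, with 2 of 4 tested called higher. With TNF they summed to 153 to 171 against 88.8 to 91.2, with 4 of 4 tested called higher and Gp9 not listed. The 5 dendritic cell markers, all below the filter, summed to 2.43 to 3.20 CPM against 1.16 to 1.425 untreated and 1.19 to 2.48 against 1.15 to 1.98 with TNF. The 5 epithelial markers summed to 1.80 to 2.18 CPM against 0.521 to 0.844 untreated and 0.0591 to 0.276 against 0.0479 to 0.102 with TNF. In bulk RNA, fewer cells of a type and less RNA per cell cannot be told apart, and the part of these marker levels in the results that follow was not tested.

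Paired immunoglobulin-like receptors sit on macrophages, granulocytes, dendritic cells and B cells. PIR-B, the product of Pirb, is inhibitory: its cytoplasmic tail recruits the phosphatases SHP-1 and SHP-2, and its ligands include MHC class I. The PIR-A proteins are activating, and signal through the Fc receptor gamma chain encoded by Fcer1g. The genes have near-identical copies beside each other, and in this annotation the block holds Pirb, Pira2, Lilra6 (named for the human leukocyte immunoglobulin-like receptors) and the predicted genes Gm15448 and Gm14548, all on the minus strand.

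Sequence just upstream of the start sites is shown for 4 genes of the block because it is almost the same in genes whose levels differed in opposite directions between genotypes. The sequences are from RefSeq promoters on GRCm38, are 120 bases long, run 5′ to 3′ along the minus strand and begin 10 bases before GAGGAAGT, a PU.1-type ETS motif set in capitals.
Pirb, chr7:3720393-3720512: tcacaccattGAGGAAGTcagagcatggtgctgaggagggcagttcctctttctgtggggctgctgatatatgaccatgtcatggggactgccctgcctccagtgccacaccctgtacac
Pira2, chr7:3845090-3845209: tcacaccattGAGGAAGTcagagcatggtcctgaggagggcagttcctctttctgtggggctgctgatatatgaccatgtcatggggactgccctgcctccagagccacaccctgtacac
Gm14548, chr7:3898151-3898270: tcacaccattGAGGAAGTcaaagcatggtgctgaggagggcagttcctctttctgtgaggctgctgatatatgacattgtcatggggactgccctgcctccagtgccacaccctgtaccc
Lilra6, chr7:3915542-3915661: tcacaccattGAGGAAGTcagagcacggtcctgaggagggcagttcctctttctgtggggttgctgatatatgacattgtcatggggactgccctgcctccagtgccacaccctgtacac
Against Pirb, the printed stretch differed at 2 bases in Pira2, at 5 in Gm14548 and at 5 in Lilra6. Over the aligned promoter, Pirb was 97.8% identical to Pira2 (222 aligned bases), 96.4% to Lilra6 (220 bases) and 99.5% to Gm15448 (187 bases). The motif GAGGAAGT, read on both strands over the 250 bases before the start, was in the promoters of 5 of the 52 members that RefSeq covers (9.62%), namely the 5 genes of the block, against 2.79% of all genes covered. A match is a description of the letters and not a site of binding.

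Within the block, the inhibitory receptor gene Pirb had lower transcript levels in Klf6-deleted macrophages. Pirb (chr7:3711409-3720391) had 2721, 2566 and 3208 normalized counts in Klf6-deleted untreated libraries, against 14625, 14692 and 15005 in Lyz2cre untreated libraries. After TNF the values were 2854, 2939 and 2714 in Klf6-deleted libraries, against 24315, 22912 and 23320.3 in Lyz2cre libraries. Every Klf6-deleted library was below every Lyz2cre library in both conditions. The means were 5.24-fold lower untreated and 8.29-fold lower with TNF, on the scale of log2(value + 1) on which all folds are given unless a read ratio is named. Across tables, with no test, the TNF level was 1.00 times the untreated level in Klf6-deleted cells and 1.59 times in Lyz2cre cells. The difference between genotypes was larger with TNF by 0.66 on the log2 scale (change −0.66 ± 0.08 SE; limma over all genes, adjusted p = 1.02e-06). That test subtracts the differences on which the stretch was picked, so it is not independent of the choice.

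Pira2, an activating PIR-A gene, had 82.5, 92.7 and 67.4 normalized counts in Klf6-deleted untreated libraries, against 384, 407 and 372 in Lyz2cre untreated libraries. The TNF values were 97.1, 78.1 and 102 in Klf6-deleted libraries, against 649, 664 and 675 in Lyz2cre libraries. The groups did not overlap in either condition, and the fold, 4.78 lower untreated and 7.15 lower with TNF, was near that of Pirb. Its difference also changed with TNF, by −0.58 ± 0.18 (SE; limma, adjusted p = 0.00984), a call that was lost when libraries were scaled to the same total (adjusted p = 0.0689). Gm15448, with no annotated role, averaged 24.8 ± 4.18 in Klf6-deleted and 45.4 ± 14.2 in Lyz2cre untreated libraries, and 24.3 ± 10.4 against 69.0 ± 6.36 with TNF (SD, n = 3 each). Its untreated call was lost without Klf6-deleted untreated replicate 2 or without Lyz2cre untreated replicate 3.

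The other 2 genes of the block were higher in Klf6-deleted macrophages. Lilra6 had 332.6, 307 and 352 normalized counts in Klf6-deleted untreated libraries, against 128, 99.3 and 120 in Lyz2cre untreated libraries, and with TNF 454, 397 and 435 against 223, 236 and 240. Gm14548 had 334, 337 and 369 in Klf6-deleted untreated libraries, against 131, 167 and 179 in Lyz2cre untreated libraries, and with TNF 253, 323 and 310.1 against 180.0, 173 and 156. No library of a genotype overlapped the other for either gene. Lilra6 was 2.85-fold higher untreated and 1.84-fold higher with TNF, a change of −0.63 ± 0.15 (SE; limma, adjusted p = 0.00158). Gm14548 was 2.19-fold and 1.73-fold higher, and its change of −0.34 did not pass (limma, adjusted p = 0.119).

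A ratio of 2 genes within a library does not depend on the library's scaling. Pira2 over Lilra6 was 0.248, 0.302 and 0.192 in Klf6-deleted untreated libraries and 3.00, 4.10 and 3.09 in Lyz2cre untreated libraries. With TNF it was 0.214, 0.197 and 0.235 in Klf6-deleted libraries and 2.91, 2.82 and 2.82 in Lyz2cre libraries. Pira2 thus had fewer reads than Lilra6 in every Klf6-deleted library and more in every Lyz2cre library. Pirb took 75.7 to 79.7% of the block's summed normalized counts in the 6 Klf6-deleted libraries and 95.2 to 95.6% in the 6 Lyz2cre libraries.

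These genes share sequence, and the counting tool's handling of shared reads is not given in the sources used here, so their values are uncertain. The 50-base words of the annotated transcripts were compared with those of other annotated genes, in the sense direction only. Shared with another gene were 93.0% of the words of Pira2, 71.2% of Gm14548, 54.4% of Gm15448, 34.0% of Pirb and 31.3% of Lilra6. For Pira2 the closest is Gm15922, which lies in the block, is not a member and holds 82.6% of its words. Gm15922, looked at after its overlap was seen, had 148, 160 and 175 normalized counts in Klf6-deleted untreated libraries, against 194, 231 and 196 in Lyz2cre untreated libraries. Its groups did not overlap, and its difference of −0.36 was smaller than that of Pira2, −2.26.

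**Figure D1:**
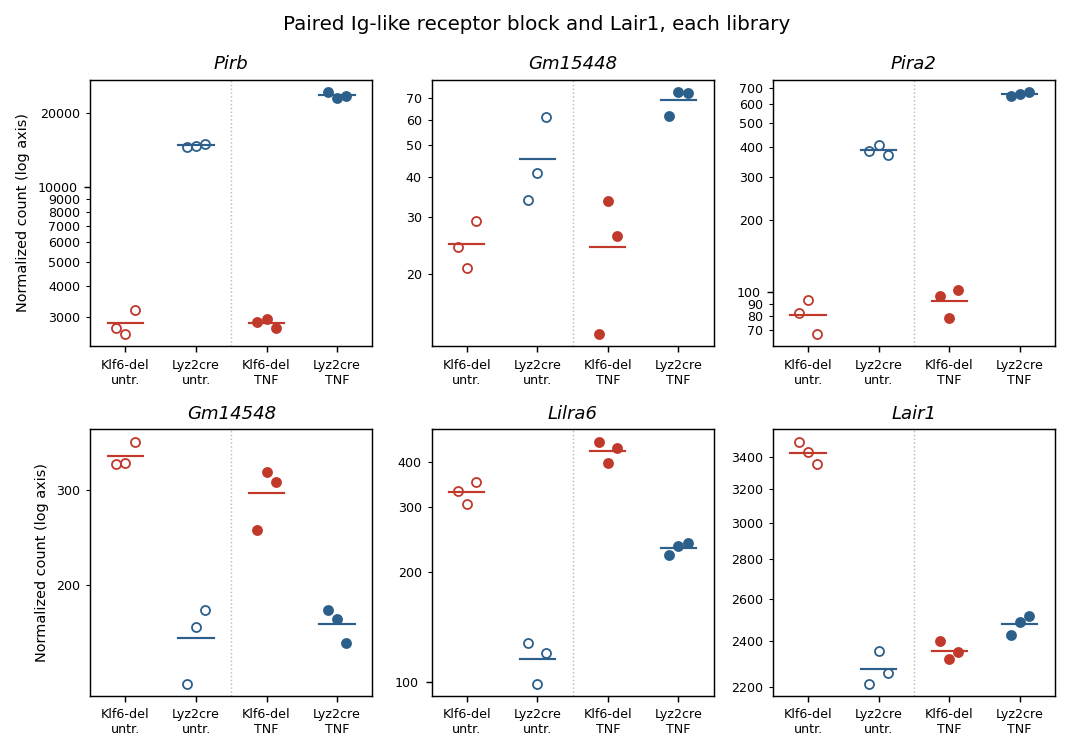
Normalized counts (log axis, a separate range for each gene) in each of the 12 libraries for the 5 genes of the paired receptor block and Lair1, with Klf6-deleted in red left of Lyz2cre in blue, untreated as open and TNF as filled circles, and bars at group means. Pirb, Pira2 and Gm15448 lie lower and Gm14548 and Lilra6 higher in Klf6-deleted libraries in both conditions, while Lair1 lies higher without TNF and, as deposited, slightly lower with TNF.

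Of the other leukocyte receptors, Lair1 encodes an inhibitory receptor for collagen. It had 3498, 3427 and 3349.8 normalized counts in Klf6-deleted untreated libraries, against 2215, 2357 and 2259.8 in Lyz2cre untreated libraries. With TNF the values were 2399, 2321 and 2350.4 in Klf6-deleted libraries, against 2426, 2489 and 2517 in Lyz2cre libraries. The groups stood apart untreated, at 0.59 higher on the log2 scale, and lay close with TNF, at −0.07, which was not called. The change of −0.66 ± 0.06 (SE) passed (limma, adjusted p = 5.5e-09). With libraries scaled to the same total the TNF difference was 0.26, on the other side of 0. Lair1 shared 0.52% of its words with other genes.

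Tarm1 encodes an activating receptor of myeloid cells that pairs with the Fc receptor gamma chain. It was near 0 without TNF, at 3.33, 0.997 and 5.68 normalized counts in Klf6-deleted libraries against 2.19, 2.42 and 3.28 in Lyz2cre libraries. TNF-treated cells had 277, 268 and 253 in Klf6-deleted libraries, against 1300.0, 1361 and 1364 in Lyz2cre libraries. The TNF groups did not overlap and Klf6-deleted libraries were 5.03-fold lower. Below the filter on low values without TNF, Tarm1 had no test of the change. Lilra5, an activating receptor, had 65.9, 69.8 and 53.6 in Klf6-deleted untreated libraries against 28.4, 29.1 and 28.4 in Lyz2cre untreated libraries, and averaged 20.4 ± 5.31 against 9.24 ± 5.03 with TNF, where it was below the filter. Gp6, the platelet collagen receptor, was at 14.0 or less in every library and was not tested.

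Eps8l1 is a relative of Eps8, which links receptor signalling through Rac to the actin cytoskeleton. Its transcripts were almost absent from Klf6-deleted libraries: it had 0.834, 0 and 4.06 normalized counts in Klf6-deleted untreated libraries, against 311, 335 and 316 in Lyz2cre untreated libraries. Under TNF the counts were 1.87, 0.909 and 0 in Klf6-deleted libraries, against 198, 199.7 and 212 in Lyz2cre libraries. In reads this was 6 over the 3 Klf6-deleted untreated libraries and 850 over the 3 Lyz2cre untreated libraries, a ratio after scaling of 183-fold lower (95% exact interval 83.9 to 501, counting error only). With TNF it was 3 reads against 578, a ratio of 216-fold lower (95% exact interval 73.7 to 1052). The difference did not pass the test of a change with TNF (0.40 ± 0.66 SE; limma, adjusted p = 0.632). Eps8l1 passed the filter in both conditions through its Lyz2cre libraries alone, so a difference was built into its passing. The test of the change rests on a group near 0, and the read ratios moved the other way, so nothing is read from it. No 50-base word of Eps8l1 occurs in the transcripts of another annotated gene in the sense direction. Opposite strands were not compared, and the antisense gene Gm15494 overlaps it over 10612 bases. The kit marks strand, while the strand setting of the counting is not given in the sources used here.

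The 150 bases of the plus strand before the first of 3 Eps8l1 starts in RefSeq (GRCm38) are shown because no other member had so large a difference. The capitals mark GGGCGG, a GC box of the kind bound by Sp and Krüppel-like factors.
Eps8l1, chr7:4460547-4460696: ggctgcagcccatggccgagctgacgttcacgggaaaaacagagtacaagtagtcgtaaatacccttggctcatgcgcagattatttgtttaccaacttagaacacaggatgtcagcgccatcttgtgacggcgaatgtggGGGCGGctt
The GC box GGGCGG, on both strands, was in the promoters of 28 of the 52 members covered (53.9%), against 35.4% of all genes covered. CACCC, which resembles the Krüppel-like factor motif, was in 29 of 52 (55.8%) against 54.5%. It was in none of the 3 Eps8l1 promoters. By the GENCODE start of 4460674, the end of the printed stretch, with its GC box, lies inside the gene.

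Neighbours of Eps8l1 in the list of cytoskeletal genes differed far less. Ppp1r12c, a regulatory subunit of myosin phosphatase and the next member along the chromosome, averaged 3573 ± 101 normalized counts in Klf6-deleted and 5307 ± 58.1 in Lyz2cre untreated libraries, and 1939 ± 69.3 against 2294 ± 160 with TNF. Tnni3, the troponin I of heart muscle, averaged 63.7 ± 14.0 against 152 ± 21.8 untreated and 44.8 ± 12.5 against 163 ± 30.6 with TNF. Dnaaf3, an assembly factor of ciliary dynein named here because it overlaps Tnni3 by 1297 bases on the same strand, differed in the same direction, by −0.83 untreated and −1.27 with TNF. Cdc42ep5, an effector of the GTPase Cdc42, went the other way, with 22.5, 19.9 and 25.2 in Klf6-deleted untreated libraries against 1.09, 3.63 and 4.38 in Lyz2cre untreated libraries. With TNF it had 11 reads over the Klf6-deleted libraries and 0 over the Lyz2cre libraries, at least 3.26-fold higher against a floor of 3 reads over the group. Cdc42ep5 passed the filter untreated through its Klf6-deleted libraries alone, so a difference was built into its passing. Tnnt1, a troponin T of skeletal muscle, was at 16.0 or less in every library.

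Ssc5d and Sbk2 lie beside each other on opposite strands, overlap by 4315 bases and had the changes with TNF of greatest size among the 41 members tested in both tables. Sbk2's place in that order did not hold with a pseudocount of 5, where its change was 0.71. Ssc5d encodes a secreted scavenger receptor. It had 124, 109.7 and 99.0 normalized counts in Klf6-deleted untreated libraries, against 4.38, 13.3 and 7.66 in Lyz2cre untreated libraries. The TNF values were 16.8, 19.1 and 12.6 in Klf6-deleted libraries, against 127, 64.9 and 82.6 in Lyz2cre libraries. The order of the genotypes was thus opposite in the 2 conditions, with no overlap in either: 3.67 higher untreated and −2.39 with TNF on the log2 scale. The change was −6.07 ± 0.47 (SE; limma, adjusted p = 1.21e-09). Ssc5d passed the filter untreated through its Klf6-deleted libraries alone, with TNF chiefly through its Lyz2cre libraries, and the other group lay near or below 1 CPM each time, so a difference in each table was built into its passing. No 50-base word of Ssc5d or Sbk2 occurs in the transcripts of another annotated gene in the sense direction. Opposite strands were not compared, so this does not cover the overlap of the pair, and the strand setting of the counting is not given.

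Sbk2 encodes a kinase of the SH3-binding-domain family. It had 178, 185 and 152 normalized counts in Klf6-deleted untreated libraries, against 40.5, 41.2 and 25.2 in Lyz2cre untreated libraries. Under TNF there were 75.7, 63.6 and 59.3 in Klf6-deleted libraries, against 0.995, 6.18 and 9.17 in Lyz2cre libraries. Sbk2 was higher in Klf6-deleted libraries in both conditions, without the reversal seen in Ssc5d. Its change of 1.40 ± 0.58 (SE; limma, adjusted p = 0.0494) was lost in 9 of the 12 fits that left out 1 library, at an adjusted p of up to 0.103, and remained without Lyz2cre untreated replicate 3 or Lyz2cre TNF replicates 2 or 3. Without Lyz2cre TNF replicate 1, the library near 0, the change was 0.70. With TNF, Sbk2 passed the filter through its Klf6-deleted libraries alone, since all 3 Lyz2cre libraries were below 1 CPM. The stromal marker sums given above moved in the direction of Sbk2 in both conditions and in that of Ssc5d only without TNF, and their part was not tested.

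**Figure D2:**
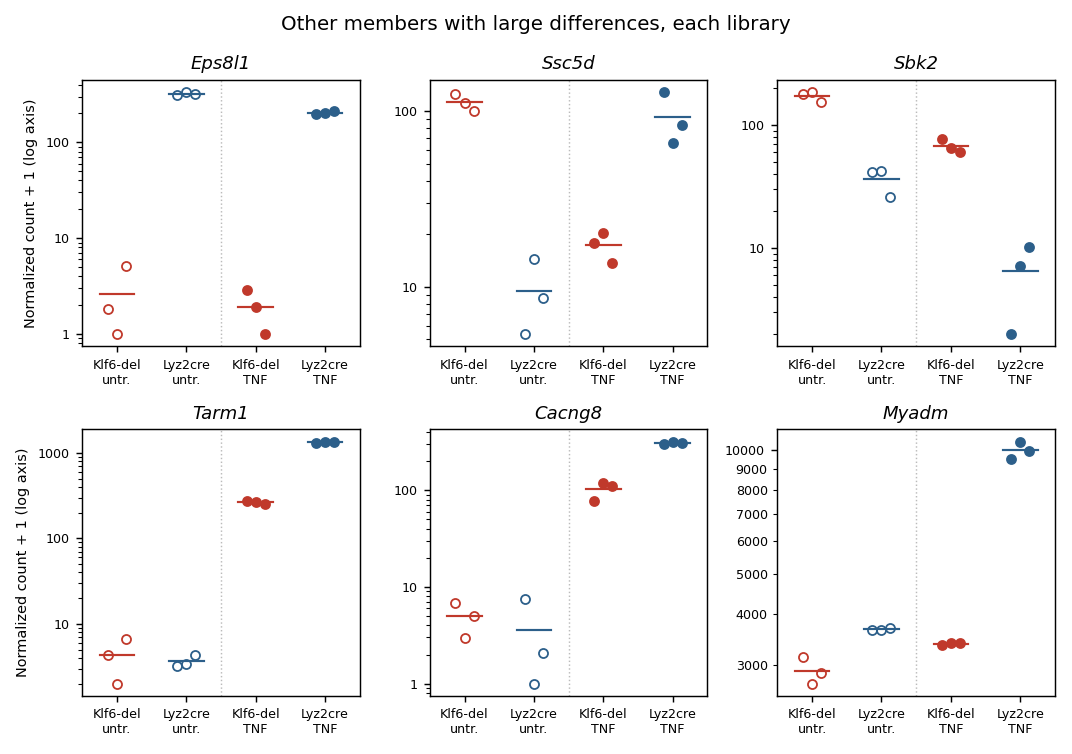
Normalized count + 1 (log axis, a separate range for each gene) in each of the 12 libraries for 6 further members, with Klf6-deleted in red left of Lyz2cre in blue, untreated as open and TNF as filled circles, and bars at group means. Eps8l1 sits near the bottom of the axis in the 6 Klf6-deleted libraries, Ssc5d changes order between conditions, and Tarm1 and Cacng8 have levels above 50 with TNF only.

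At the near edge of the stretch, Myadm and Cacng8 differed with TNF. Myadm, a membrane protein of differentiating myeloid cells, had 3130.0, 2703 and 2870.0 normalized counts in Klf6-deleted untreated libraries, against 3659, 3657 and 3695 in Lyz2cre untreated libraries. With TNF it had 3349, 3396 and 3385 in Klf6-deleted libraries, against 9516, 10487 and 9960.4 in Lyz2cre libraries. It was 1.27-fold lower untreated and 2.96-fold lower with TNF, and the change of −1.22 ± 0.07 (SE) passed (limma, adjusted p = 6.38e-12). Cacng8, an auxiliary subunit of glutamate receptors, was at 6.57 or less in every untreated library. With TNF it had 76.6, 117 and 109 in Klf6-deleted libraries against 297, 317 and 303 in Lyz2cre libraries, and the antisense gene Gm44151 overlaps it by 9331 bases.

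Kmt5c, a histone H4 methyltransferase, lay lower without TNF and higher with TNF in Klf6-deleted cells. It averaged 882 ± 55.7 normalized counts in Klf6-deleted and 1181 ± 61.7 in Lyz2cre untreated libraries, and 780.5 ± 62.6 against 578 ± 17.7 with TNF. The groups overlapped in neither condition, and the change of 0.85 ± 0.10 (SE) passed (limma, adjusted p = 3.36e-07). Isoc2b, an isochorismatase-domain protein, averaged 146 ± 8.49 against 168 ± 12.2 untreated, which was not called, and 103 ± 15.2 against 70.9 ± 8.21 with TNF (change 0.74 ± 0.21 SE; limma, adjusted p = 0.00576). Its TNF call was lost without Klf6-deleted TNF replicate 2 or 3.

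The remaining tested members with known roles had differences below 2-fold in both conditions, apart from Tmem150b untreated. Among the 8 RNA-processing genes, 1 was called higher and 3 lower untreated, and 1 higher and 4 lower with TNF. Of all genes tested, 56.9% were called untreated and 57.3% with TNF, and the calls in the role groups used the contrasts that picked the stretch, so nothing is read from them. U2af2, the large subunit of a splicing factor, was 1.18-fold higher untreated and 1.17-fold higher with TNF, whereas Tsen34, of the tRNA-splicing endonuclease, was 1.25-fold and 1.36-fold lower. The TNF call of Tsen34 was lost with libraries scaled to the same total (−0.12). Of their 50-base words, 14.7% of those of U2af2 and 21.0% of those of Tsen34 also occur in another annotated gene. Leng8 averaged 4956 ± 239 against 6922 ± 350 untreated and 4356 ± 188 against 4347 ± 380 with TNF, where it was called higher only with libraries scaled to the same total (0.33). Cnot3, a subunit of the CCR4-NOT deadenylase, was not called in either condition.

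Of the 5 genes for lipid enzymes and membrane proteins, 1 was called higher and 2 lower untreated. With TNF 1 was called higher and 3 lower, beside the same 56.9% and 57.3% of all genes. Mboat7, an acyltransferase of phosphatidylinositol, averaged 1238 ± 7.23 normalized counts in Klf6-deleted and 1953 ± 95.6 in Lyz2cre untreated libraries, and 1181 ± 74.0 against 1658 ± 129 with TNF. Tmem150b, a regulator of autophagy, was 2.25-fold lower untreated and 1.76-fold lower with TNF. It overlaps Brsk1 on the opposite strand by 9166 bases. Rdh13, a mitochondrial retinol dehydrogenase, was 1.15-fold and 1.31-fold higher. Its untreated groups overlapped, and the untreated call was lost without Klf6-deleted untreated replicate 1 or 2 or Lyz2cre untreated replicate 2 or 3.

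Of the 6 zinc-finger genes above the filter, 1 was called higher and 3 lower without TNF, and 1 lower with TNF, beside 56.9% and 57.3% of all genes. Fiz1, a zinc-finger protein that binds the receptor Flt3, differed by 0.19 untreated and was not called with TNF. Zfp580 differed by −0.69 and −0.08. Of 7 signalling and trafficking genes tested without TNF, 1 was called higher and 4 lower. Of 5 tested with TNF, 1 was called higher and 2 lower, beside the same shares of all genes. That list also holds the methyltransferase gene Kmt5c, which was among those lower untreated and was the gene called higher with TNF. Ube2s, a ubiquitin-conjugating enzyme of the anaphase-promoting complex, differed by 0.24 untreated and −0.18 with TNF. Ppp6r1, a subunit of protein phosphatase 6, differed by −0.07 and −0.38, and Hspbp1, a co-chaperone of Hsp70, by −0.23 and −0.26. Rps9, a protein of the small ribosomal subunit, differed by −0.09 and −0.33. With libraries scaled to the same total, the sign turned for Rps9 and Ppp6r1 untreated and for Ube2s, Zfp580, Hspbp1 and Fiz1 with TNF, and the TNF calls of Rps9 and Ppp6r1 were lost.

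Per kilobase of annotated exon, Pirb ranked second of the 60 members in Lyz2cre untreated libraries, at 3304 normalized counts per kilobase after Rps9 at 5229, and first in Lyz2cre TNF libraries at 5260.0. In Klf6-deleted libraries the leading members were Rps9, at 4909 untreated and 2700.0 with TNF, and Epn1, an endocytic adaptor, at 2016 and 1218, against 633 and 634 for Pirb. These are levels per length within a group, and across tables they carry no test.

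Among the members as a whole, those called lower outnumbered those called higher in both conditions. Without TNF 46 members passed the filter of 1 CPM in at least 3 libraries, and with TNF 43, 41 of them the same genes. The 12 that passed in neither included Il11 and Gp6. Without TNF 33 of 46 were called (limma, adjusted p below 0.05), 11 higher and 22 lower, where 56.9% of all 12715 genes tested were called, 27.6% higher and 29.3% lower. With TNF 31 of 43 were called, 7 higher and 24 lower, where 57.3% of 11717 genes were called, 26.5% higher and 30.8% lower. Both shares used the contrasts that picked the stretch, so nothing is read from them. The median log2 difference of the members was −0.25 untreated and −0.31 with TNF, against −0.01 and −0.01 for all genes tested. With libraries scaled to the same total the median of all genes moved by 0.13 untreated and 0.33 with TNF, and the members split into 12 higher and 16 lower untreated and 15 higher and 13 lower with TNF. Relative to the median of all genes, the members' median was −0.24 untreated and −0.30 with TNF under both scalings. A factor per library shifts all genes nearly alike, so this agreement was fixed in advance and nothing is read from it.

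Differences of at least 2-fold were called for 11 of 46 members without TNF, 6 higher and 5 lower, where 13.8% of all genes tested were so called, 11.1% higher and 2.71% lower. With TNF there were 11 of 43, 1 higher and 10 lower, where the share was 15.1%, with 8.13% higher and 6.95% lower. Groups did not overlap for 34 of 46 members untreated (62.3% of all genes) and 33 of 43 with TNF (63.2%). Called in both conditions were 22 of the 41 members tested in both. Of these, 5 were higher in both, 15 lower in both, and Kmt5c and Ssc5d in opposite directions. The share of all genes called in both conditions was not counted. These calls used the contrasts that picked the stretch, so nothing is read from them. The 5 higher in both were Gm14548, Lilra6, Rdh13, Sbk2 and U2af2.

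**Figure D3:**
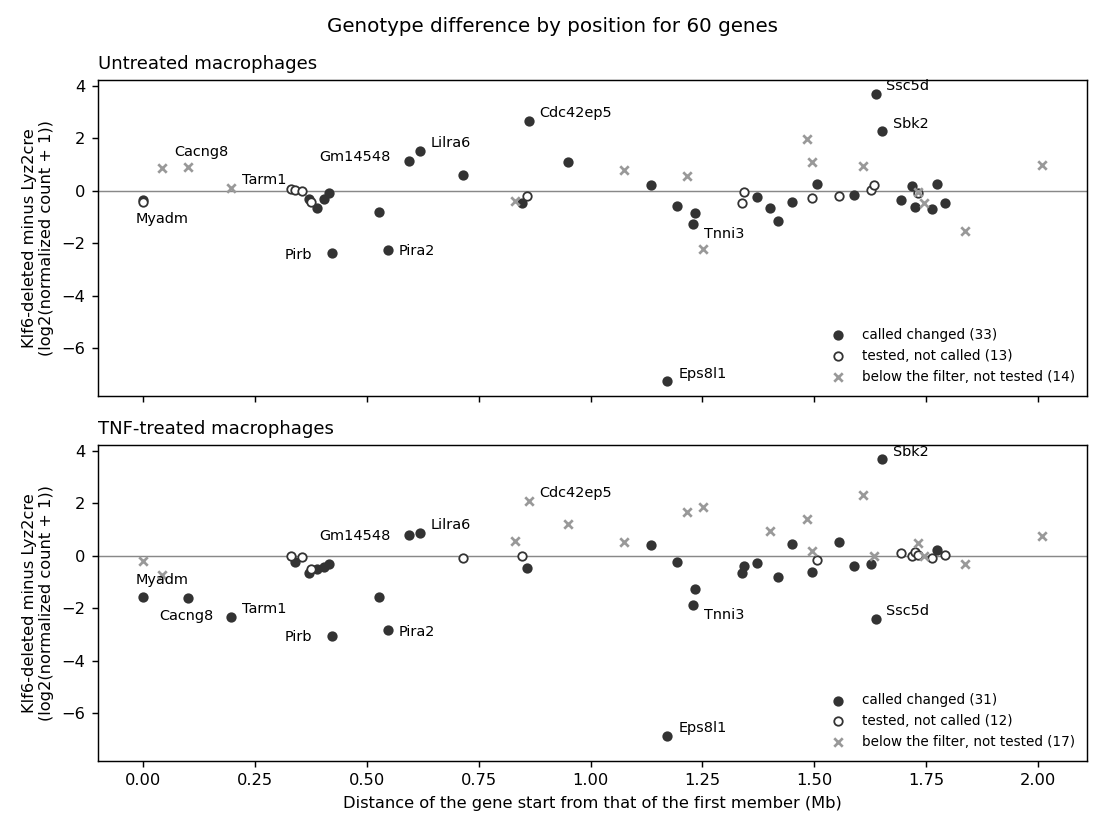
Genotype difference, Klf6-deleted minus Lyz2cre on log2(normalized count + 1), of the 60 members against the distance of each gene start from that of the first member in Mb, untreated above and with TNF below. Filled points were called, open points were tested and not called, and crosses were below the filter; large differences of either sign lie between small ones, with Eps8l1 lowest in both panels.

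Between 3.5 and 5.0 Mb, large differences stood among small ones. From 3.0 to 3.5 Mb, 1 of 2 tested members was called untreated. With TNF all 3 members tested there were called, at −2.33 (Tarm1) to −1.56 (Myadm). Between 3.5 and 4.0 Mb, which holds the receptor block, the tested members ranged from −2.39 (Pirb) to 1.51 (Lilra6) untreated, on 9 called of 13. From 4.0 to 4.5 Mb the untreated range was −7.26 (Eps8l1) to 2.65 (Cdc42ep5), on 7 called of 8. Between 4.5 and 5.0 Mb the untreated range was −1.25 (Tnni3) to 3.67 (Ssc5d), on 11 called of 17. From 5.0 Mb on, the 6 tested members lay between −0.69 and 0.24 untreated, on 5 called of 6, and 1 of 6 was called with TNF. Of all genes tested 56.9% were called untreated and 57.3% with TNF.

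The stretch ends in genes with small differences or few reads. The members nearest to its far limit of 6 Mb were Epn1 (−0.46 untreated and 0.01 with TNF), Rasl2-9 and Nlrp2, the last pair below the filter. The nearest genes outside, Zfp787, Zfp444 and Zfp667, differed by −0.18, −0.29 and −0.20 untreated and by 0.03, 0.07 and 0.90 with TNF. In the next 3 Mb, 8 of 12 tested genes were called untreated (1 higher, 7 lower) and 2 of 11 with TNF. Of all genes tested 56.9% were called untreated and 57.3% with TNF. On all of chromosome 7 beyond 6 Mb, those next 3 Mb included, 505 of 857 genes were called untreated, 224 higher and 281 lower. With TNF 436 of 799 were called, 238 higher and 198 lower.

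The genotype difference itself changed with TNF for 19 of the 41 members tested in both tables, 7 upwards and 12 downwards (limma, adjusted p below 0.05), where 52.2% of 11425 genes did, 26.5% upwards and 25.7% downwards. The members' share of 46.3% is near that background. Their median change was −0.19, against 0.02 for all genes tested. With libraries scaled to the same total 13 members changed upwards and 6 downwards.

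**Figure D4:**
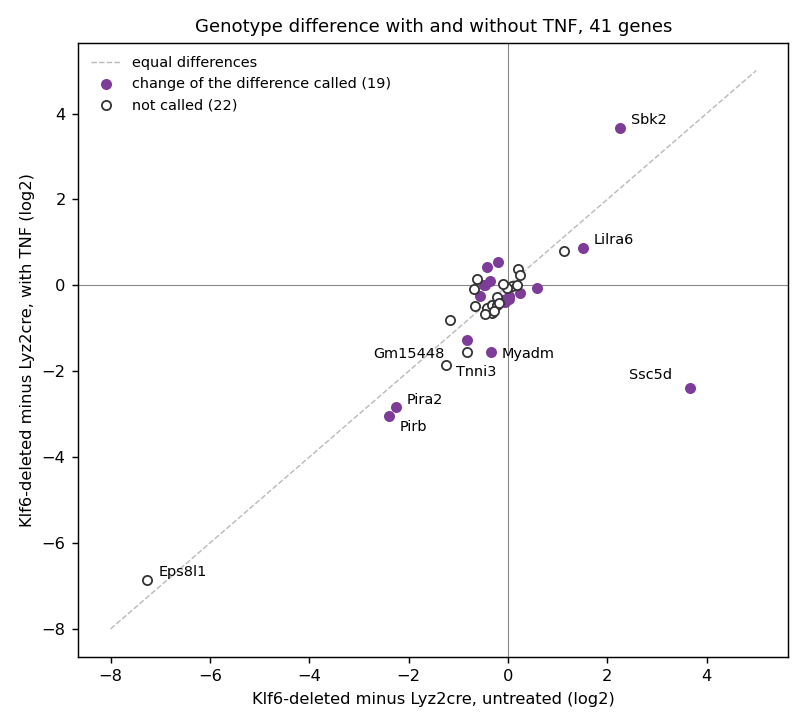
Genotype difference with TNF against that without TNF, both Klf6-deleted minus Lyz2cre in log2, for the 41 members tested in both tables, with a dashed line of equal differences. The 19 filled points changed with TNF in the limma test; Ssc5d lies far below the line, Myadm below it, and Eps8l1 near it at the far end.

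Partners of the paired receptors were followed in a list of 21 genes. Of these, 6 were higher and 11 lower in Klf6-deleted untreated libraries, and 2 higher and 13 lower with TNF, beside 27.6% higher and 29.3% lower untreated and 26.5% higher and 30.8% lower with TNF among all genes tested. The TNF split turned to 11 higher and 5 lower when libraries were scaled to the same total. Fcer1g, the signalling chain of PIR-A, averaged 10505 ± 64.5 normalized counts in Klf6-deleted and 15729 ± 646 in Lyz2cre untreated libraries, and 6488 ± 126 against 12105 ± 568 with TNF. Ptpn6, which encodes SHP-1, differed by −0.43 untreated and by −0.22 with TNF, the second turning to 0.10 under that scaling. Lilrb4a, an inhibitory receptor gene on another chromosome (0.29 and 0.76), and its relative Lilr4b (0.36 and 0.63) were higher in both conditions under both scalings. The median of the list was −0.22 in both conditions, against −0.01 for all genes tested.

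Of the EPS8 family and its partners, 12 genes in all with Eps8l1 itself counted, 10 were tested, and 8, Eps8l1 included, were lower untreated. With TNF 2 were higher and 6 lower, which became 4 higher and 2 lower under the same-total scaling, to be read beside the same shares of all genes as for the receptor partners and for the subunits that follow. Eps8 itself averaged 1998 ± 218 normalized counts in Klf6-deleted and 2775 ± 1.71 in Lyz2cre untreated libraries. With TNF it averaged 165 ± 28.0 against 79.4 ± 20.2, so that its order was opposite to that of Eps8l1. Eps8l2 was below the filter. Rac2 differed by −0.64 untreated and 0.00 with TNF. The median of the tested genes was −0.43 untreated and −0.32 with TNF. Eps8l1, picked with the stretch, is part of these counts and medians. Of the 11 CCR4-NOT subunits, the member Cnot3 among them, 2 were lower untreated and 4 with TNF. Under the same-total scaling the subunits called were instead higher, 7 untreated and 8 with TNF. The median of the 11 subunits as deposited was 0.01 untreated and −0.11 with TNF.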

How the data were processed

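RNA of 12 libraries was made from 150 ng of total RNA each with a stranded kit after removal of ribosomal RNA, per the labels' protocols. Cufflinks, GRCm39 and mm10 are named without a role, per the submitters' processing notes; which aligner, counter and strand setting were used is not stated. The authors deposited a normalized signal per gene, whose values were whole multiples of 1 step per library (largest deviation 5.3e-05 reads, tolerance 0.001), so reads were recovered. Genotypes were compared within each table with limma 3.58.1 (R 4.3.3) on log2(value + 1), with a mean-variance trend, over genes that reached 1 CPM in 3 or more libraries, and Benjamini-Hochberg adjustment over all genes. The change of the difference with TNF was a contrast over the 4 groups. The design had planned the same test for deposited values of any unit, and edgeR 4.0.16 and DESeq2 1.42.0 on the recovered reads were alternatives. The fits were tested on simulated data. Intervals on read ratios are exact and, like the floor of 3 reads, cover counting error only. Positions are from GENCODE vM21 (GRCm38) and promoters from RefSeq. Named were Klf6, all leukocyte receptors, the 12 members with the largest mean difference, up to 8 with the largest change with TNF, up to 3 more per role group by level, and the genes nearest the limit at 6 Mb; Gm14548, Gm15922, Dnaaf3 and members named as overlaps or exceptions were added after their values were seen. The members, lists and rules were chosen with earlier results of these data known. The results of a member and of a listed partner gene are not reported here.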

Additional observations from a re-analysis of the deposited data

Results flagged for a closer look

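For 16 members the genotype difference (Klf6-deleted minus Lyz2cre, log2) was not the same with and without TNF in limma's test over all genes at an adjusted p below 0.05. They are among the 19 members that passed of 41 tested, where 52.2% of all 11425 genes passed, and some were named for the size of this change. The test subtracts the differences on which the stretch was picked, so it is not independent of that choice. The changes downwards were those of Ssc5d (−6.07), Myadm (−1.22), Pirb (−0.66), Lair1 (−0.66), Lilra6 (−0.63), Pira2 (−0.58), Ube2s (−0.42), Zfp628 (−0.34), Ppp6r1 (−0.32) and Rps9 (−0.24). The changes upwards were those of Sbk2 (1.40), Kmt5c (0.85), Isoc2b (0.74), Leng8 (0.49), Epn1 (0.48) and Ppp1r12c (0.33). For Ssc5d and Kmt5c the genotypes stood in opposite order in the 2 conditions and the difference was called in both. For Lair1, Leng8, Epn1 and Ube2s the difference was called only without TNF, and for Isoc2b, Zfp628 and Ppp6r1 only with TNF. With libraries scaled to the same total, the change was no longer called for Pira2 (−0.39), Zfp628 (−0.15), Ppp6r1 (−0.12) or Rps9 (−0.05), and that of Sbk2 was lost in 9 of 12 fits without 1 library. Under that scaling the difference with TNF was called higher for Lair1 (0.26), Leng8 (0.33) and Epn1 (0.34) and was not called for Zfp628 (0.0164) or Ppp6r1 (−0.06).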

How the results depend on the processing

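The counts of members called stayed within 1.5 times, and the median difference kept its direction, under edgeR, DESeq2, a pseudocount of 5 and no filter on low values. Without the filter the median was −0.19 untreated and −0.0779 with TNF. Scaled to the same total, the median was −0.12 untreated and 0.0164 with TNF, and 15 members were called higher and 13 lower with TNF. Under that scaling the sign turned, among the named members, for Rps9 (0.0424) and Ppp6r1 (0.0660) untreated; for Lair1 (0.26), Fiz1 (0.32), Zfp580 (0.24), Ube2s (0.15), Ppp1r12c (0.0868), Hspbp1 (0.0630) and Zfp628 (0.0164) with TNF; and for the changes of U2af2 (0.19), Hspbp1 (0.16), Tsen34 (0.0630) and Fiz1 (0.0008). Leaving out 1 library at a time, the median ranged from −0.32 to −0.19 untreated and from −0.37 to −0.23 with TNF, members called higher from 9 to 11 and from 6 to 7, members called lower from 18 to 20 and from 22 to 24, and members whose difference changed with TNF from 18 to 21. Rps9 untreated was not called by edgeR or DESeq2, nor Rdh13 untreated by DESeq2. The change of Sbk2 was not called with a pseudocount of 5 (0.71, adjusted p = 0.121). Libraries with the same number did not deviate together (r = 0.152, −0.0378 and 0.158 untreated; −0.0209, −0.0123 and −0.0295 with TNF), and a replicate block moved 1 call among the named genes, the change of Sbk2 (1.40, adjusted p = 0.0581). The members below the filter, 14 untreated and 17 with TNF, had no test of their difference, and the part of sequencing depth in this was not tested.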
